A study of Mus musculus with 2 samples.

Results

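The histone cluster genes were taken as every row of both count matrices whose symbol begins with Hist1h, Hist2h, Hist3h or Hist4h, which gave 69 of 28692 genes. Of these, 55 are Hist1h genes, 11 are Hist2h, 2 are Hist3h and 1 is Hist4h. By the histone named in the symbol, 6 are linker (H1) genes and 63 are core genes, made up of 19 H2A, 19 H2B, 12 H3 and 13 H4 genes. The 69 rows hold 68 symbols, because Hist2h2bb is listed under 2 gene IDs. GENCODE M21 types 1 of these IDs as a long noncoding RNA and Hist1h2al as a processed pseudogene. The cells came from tumours of MC38, a colon carcinoma line of the mouse (strain label C57BL/6 albino), dissociated and kept ex vivo as spheroids in collagen on a microfluidic chip for 6 days. One culture received the PD-1 antibody clone RMP1-14 at 10 µg/mL (aPD-1) and the other the IgG control antibody clone 2A3 at 10 µg/mL (IgG), and the study's design text names the residual tumour cells after PD-1 blockade as its subject. Tumour cells isolated by FACS, by markers that are not named, were made into 1 single-cell 3′ library per culture, so nothing here measures the spread between cultures and no difference between the libraries carries a test.

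In these libraries 3356 aPD-1 cells and 2198 IgG cells passed the filter of at least 5000 UMIs (unique molecular identifiers, each marking 1 captured RNA molecule) and at most 10% mitochondrial (mt-) UMIs. The median depth was 16577 UMIs in aPD-1 cells and 20663 in IgG cells, and 76 aPD-1 cells and 172 IgG cells held over 40000 UMIs. Only 8 cell barcodes occurred in both libraries, and doublets were not removed. The marker genes of epithelium summed to 0.228 CPM (a gene's UMIs over all UMIs of the kept cells, scaled to the usual fixed total) in aPD-1 and 0.627 CPM in IgG with Krt18 at 0, so the epithelial markers of a carcinoma were nearly absent, and the 9 fibroblast markers, led by Dcn, summed to 669 CPM in aPD-1, against 1042 CPM in IgG. Macrophage markers summed to 5.42 CPM in aPD-1, against 30.9 CPM in IgG, and the T and NK markers to 0.813 CPM and 0.971 CPM, with Cd3e and Gzmb at 0.

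Core histones H2A, H2B, H3 and H4 form the nucleosome around which DNA is wound, and linker histone H1 sits where the DNA enters and leaves it. Most genes of the histone clusters are replication-dependent: they are transcribed in S phase, lack introns, and give an mRNA that ends just after a short stem-loop, bound by the protein SLBP, instead of in a poly-A tail. Several cluster genes can also give longer, polyadenylated transcripts, and 3′ libraries of the kind used here prime on poly-A. A UMI level of such a gene therefore describes the captured part of its RNA, and the order of members given below is an order of captured UMIs, not divided by transcript length.

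The stem-loop is shown first, because it is where a replication-dependent histone mRNA normally ends. The 4 members were picked for their differing letters among those described below. Each line is the DNA letters of the transcript strand from GENCODE M21 (GRCm38), 5′ to 3′, with the paired arms of the stem in capitals and the loop in lower case.
Hist1h2ap: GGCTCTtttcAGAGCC
Hist1h4i: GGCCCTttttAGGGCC
Hist1h4d: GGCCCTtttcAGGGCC
Hist2h2ac: GGCTCTttttAGAGCC
Of the 67 members whose gene ID is in that annotation, 43 have such a stem-loop in their longest transcript. Among the 24 without one, 14 have an annotated transcript of under 420 bases, so a stem-loop past the annotated end could not be seen. The Hist1h2ap letters were shared by 23 of the 43, among them Hist1h1c, Hist1h1e, Hist1h2ae and Hist3h2a, and the Hist1h4d letters by 7. The Hist1h4i letters occurred in 1 other member, Hist2h4. The same pattern was found in 21 of 19248 other protein-coding genes (0.109%).

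The promoters of 4 members are shown as well, chosen because these are the most abundant core gene and the 3 most abundant linker genes, which behaved differently across cells. Each runs from 250 bases before to 50 bases after the start in RefSeq (GRCm38.p6), on the gene's own strand. Capitals mark CCAAT or its reverse complement and TATAAA. The Hist1h2ap promoter is chr13:21833426-21833725 (minus strand), that of Hist1h1b chr13:21780576-21780875 (minus), that of Hist1h1e chr13:23622509-23622808 (minus) and that of Hist1h1c chr13:23738557-23738856 (plus).
Hist1h2ap: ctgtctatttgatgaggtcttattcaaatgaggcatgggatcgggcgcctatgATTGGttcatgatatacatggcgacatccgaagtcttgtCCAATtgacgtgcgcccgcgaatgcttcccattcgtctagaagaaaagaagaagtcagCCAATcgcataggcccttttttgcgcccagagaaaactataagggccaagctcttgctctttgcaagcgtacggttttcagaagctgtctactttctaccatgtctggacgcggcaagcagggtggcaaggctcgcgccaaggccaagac
Hist1h1b: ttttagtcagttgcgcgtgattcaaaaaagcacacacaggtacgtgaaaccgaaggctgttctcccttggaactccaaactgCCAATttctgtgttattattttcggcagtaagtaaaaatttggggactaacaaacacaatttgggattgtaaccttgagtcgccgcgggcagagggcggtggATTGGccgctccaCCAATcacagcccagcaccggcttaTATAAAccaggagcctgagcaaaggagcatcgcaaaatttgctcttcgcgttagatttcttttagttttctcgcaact
Hist1h1e: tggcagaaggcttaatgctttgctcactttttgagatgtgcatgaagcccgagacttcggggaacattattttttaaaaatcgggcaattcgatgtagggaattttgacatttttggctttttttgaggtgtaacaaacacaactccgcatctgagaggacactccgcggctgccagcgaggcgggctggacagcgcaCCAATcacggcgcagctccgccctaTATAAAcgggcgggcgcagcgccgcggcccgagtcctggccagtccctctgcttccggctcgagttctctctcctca
Hist1h1c: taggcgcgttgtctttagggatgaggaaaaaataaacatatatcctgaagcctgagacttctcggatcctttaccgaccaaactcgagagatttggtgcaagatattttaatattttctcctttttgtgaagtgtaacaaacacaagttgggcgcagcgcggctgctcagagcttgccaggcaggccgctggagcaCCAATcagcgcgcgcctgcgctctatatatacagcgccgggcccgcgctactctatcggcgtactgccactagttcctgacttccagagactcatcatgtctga
TATAAA lies 28 bases before the start of Hist1h1b and 27 bases before that of Hist1h1e, and neither strand of the Hist1h2ap and Hist1h1c windows holds those letters. Promoters of 62 members were in the RefSeq table. TATAAA on either strand was in 35 of them (56.5%), against 14.2% of all 27025 promoters of the same length. CCAAT on either strand was in 53 (85.5%, against 37.9% of all promoters), in every H1, H2A, H2B and H3 promoter matched and in 3 of 12 H4 promoters. TTTGCAT on either strand, the core of the octamer that POU factors bind, was in 14 (22.6%, against 4.59% of all promoters), of which 7 were H2A and 6 H2B promoters. The remaining match was an H4 promoter. Matches were allowed to overlap and to lie anywhere in the window, and the windows of neighbouring members can share letters. A match describes the letters of the window only, and these counts are not counts of TATA boxes in place.

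A small number of genes made up nearly all of the cluster histone UMIs. Together the 69 members held 739.6 CPM in aPD-1 cells (45456 UMIs) and 723 CPM in IgG cells (35722 UMIs). The 9 members whose mean over the libraries reached 10 CPM held 89.5% of these UMIs in aPD-1 and 87.8% in IgG, and the 3 highest (Hist1h2ap, Hist1h2bc and Hist1h4i) 64.5% and 66.2%. A further 29 members lay between 1 and 10 CPM, 26 had UMIs but under 1 CPM, and 5 (Hist2h2aa2, Hist1h2br, Hist1h2bq, Hist1h1t and Hist1h2aa) had none in either library. A count of 0 allows up to 3 UMIs in a library, so those 5 were not detectable at this depth. For Hist2h2aa2 and Hist1h2bq no 50-base stretch of the last 300 bases is found in that gene alone, so reads there could also match another gene. The same held for Hist1h2ap, the highest member. Whether shared sequence accounts for these counts of 0 was not tested.

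Among core genes, Hist1h2ap, an H2A gene at chr13:21833026-21833507, was the highest member, at 293 CPM in aPD-1, against 299.7 CPM in IgG. Its transcript could not be told apart from its relatives in the last 300 bases. Every stretch of 50 bases there also occurs in at least 1 of 23 other annotated genes, chiefly other H2A genes. Reads there could thus also match those genes, and how such reads were counted was not examined. Hist1h4i, an H4 gene (chr13:22040636-22041362), had 104 CPM in aPD-1, against 77.2 CPM in IgG. Hist1h2bc, an H2B gene of 2 exons (chr13:23684199-23692908), had 80.1 CPM and 102 CPM. The H2A genes Hist1h2ae and Hist3h2a had 31.8 CPM and 14.5 CPM in aPD-1, against 39.5 CPM and 15.1 CPM in IgG. Hist1h4d, another H4 gene, had 9.18 CPM in aPD-1, against 11.5 CPM in IgG. No H3 gene reached 10 CPM: the 12 H3 genes summed to 14.5 CPM in aPD-1, against 17.1 CPM in IgG.

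The linker genes were led by Hist1h1e, Hist1h1c and Hist1h1b, which encode the somatic variants H1.4, H1.2 and H1.5. Hist1h1e (chr13:23620629-23622558) had 52.4 CPM in aPD-1, against 33.1 CPM in IgG. Its last 300 bases overlap exons of Hist1h2be and Gm11398 on the same strand, so reads there cannot be assigned to it alone. Hist1h1c (chr13:23738808-23740367) had 39.6 CPM in aPD-1, against 38.5 CPM in IgG, and Hist1h1b (chr13:21779883-21780625) 37.6 CPM and 17.9 CPM. Both have a last 300 bases found in no other annotated gene. Hist1h1a (H1.1) had 8.10 CPM in aPD-1, against 6.54 CPM in IgG, Hist1h1d (H1.3) had 2.75 CPM and 1.963 CPM, and Hist1h1t, the testis variant, had no UMI.

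**Figure D1:**
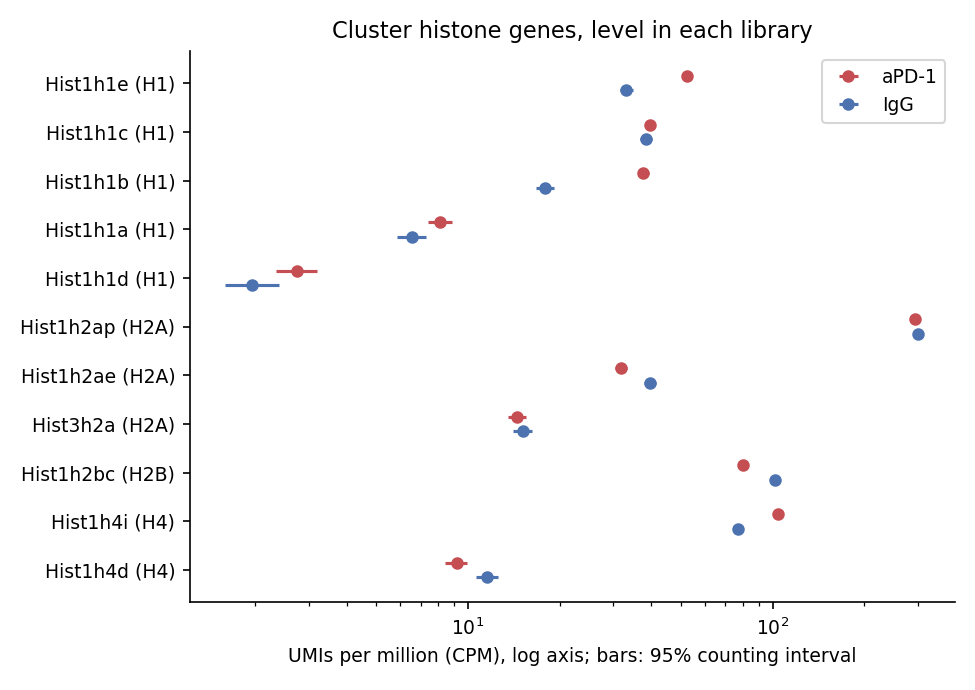
Level in CPM (log axis) of the 9 members of at least 10 CPM and of the lower linker genes, aPD-1 in red above IgG in blue, 1 point per library with its 95% counting interval. Hist1h2ap stands at 293 CPM and 299.7 CPM, and the gap between the libraries is widest for Hist1h1b, at 37.6 CPM and 17.9 CPM.

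Most of the abundant members have an annotated transcript that runs on past the stem-loop. Of the 43 members with a stem-loop, 22 have over 100 further bases and 21 have at most 100. The first set holds 6 of the 9 members of at least 10 CPM, with 330 further bases in Hist1h4i, 1153 in Hist1h1e, 840 in Hist1h1c, 151 in Hist1h2ae, 1643 in Hist3h2a and 770 in Hist1h4d. The second set holds 1, Hist1h2ap, which ends 3 bases after its stem-loop. Hist1h2bc and Hist1h1b have no stem-loop in the annotated transcript. Summed over the sets, members with a long end had 272 CPM in aPD-1, against 237 CPM in IgG, and those with a short end 326 CPM and 339.5 CPM, most of it from Hist1h2ap. The cut at 100 bases was chosen after the values were seen.

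**Figure D2:**
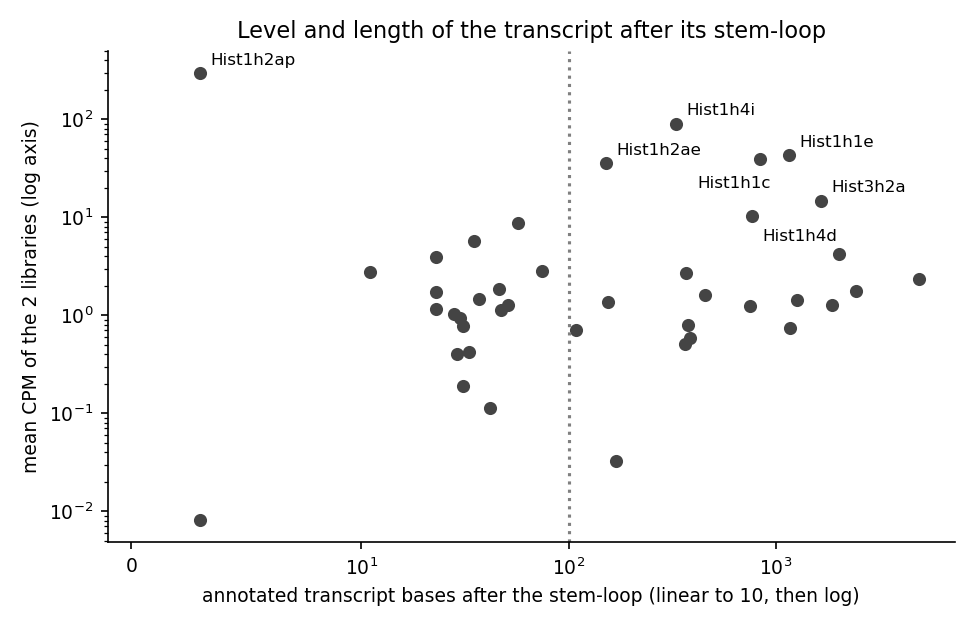
Mean CPM of the 2 libraries (log axis) against the number of annotated transcript bases after the stem-loop, 1 point per member with a stem-loop and a UMI, with a dotted line at 100 bases. Hist1h2ap, with 3 bases, is the highest point, and the 6 other labelled members lie right of the line, from 151 to 1643 bases.

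Divergent H2A and H2B neighbours, which share the stretch between their starts, were unequal in captured UMIs to varying degrees. The annotation held 12 such pairs, and the start-to-start distances of the 4 highest were 236, 251, 176 and 239 bases. Hist1h2ap had 293 CPM in aPD-1, against 299.7 CPM in IgG, while its partner Hist1h2br had no UMI. Hist1h2bc had 80.1 CPM and 102 CPM, while its partner Hist1h2ac had 4.67 CPM in aPD-1, against 3.84 CPM in IgG. Hist1h2ae was paired with Hist1h2bg at 1.16 CPM and 1.58 CPM, and Hist2h2ac (10.2 CPM in aPD-1, 7.10 CPM in IgG) with Hist2h2be at 2.15 CPM and 2.17 CPM. Lower pairs varied as well. Hist1h2bj had 2.85 CPM in aPD-1, against 5.08 CPM in IgG, and its partner Hist1h2ag 1.11 CPM and 2.39 CPM. Hist1h2bk had 0.732 CPM in aPD-1, against 1.15 CPM in IgG. Its partner Hist1h2ah had 0.0488 CPM and 0.0607 CPM, on 3 UMIs in each library.

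Comparing aPD-1 with IgG, linker histone UMIs were higher in the aPD-1 library, while the sum over all members was nearly the same. The 6 linker genes summed to 141 CPM in aPD-1, against 98.0 CPM in IgG, a ratio of 1.43 (95% counting interval 1.38 to 1.49). The 63 core genes summed to 599 CPM in aPD-1, against 625 CPM in IgG, a ratio of 0.959 (0.944 to 0.973) that turned to the other side of 1 when CPM was taken over UMIs outside ribosomal, mitochondrial and cluster histone genes, when ratios were set against the median gene, and without cells over 40000 UMIs. All 69 members together gave a ratio of 1.02 (1.01 to 1.04). The linker share of all cluster histone UMIs was 19.0% (18.6% to 19.4%, exact binomial) in aPD-1 and 13.6% (13.2% to 13.9%) in IgG. These intervals cover counting error only, and the difference has no replicate check. Without the 7 aPD-1 cells and 31 IgG cells left out for their macrophage or endothelial markers the linker log2 ratio was 0.52, the value with them. Those cells need not be all that held a UMI of such a marker. Over all kept cells the endothelial markers summed to 20.4 CPM in aPD-1, against 55.1 CPM in IgG.

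Within the linker family the ratio differed from gene to gene. Hist1h1b stood at a ratio of 2.1 (1.94 to 2.27) and Hist1h1e at 1.59 (1.49 to 1.68). Hist1h1d had a ratio of 1.40 (1.09 to 1.82), Hist1h1a 1.24 (1.08 to 1.43) and Hist1h1c 1.03 (0.969 to 1.09). The make-up of linker UMIs differed accordingly: Hist1h1b held 26.8% of them in aPD-1 and 18.3% in IgG, Hist1h1e 37.3% and 33.7%, and Hist1h1c 28.2% and 39.3%. The ratios of Hist1h1a, Hist1h1b, Hist1h1d and Hist1h1e stayed above 1 under all 9 other settings tried, and that of Hist1h1c did so under 6 of 9.

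Among core genes the directions were mixed. Hist1h4i was higher in aPD-1, at a ratio of 1.35 (1.29 to 1.40), and carried the H4 genes to 122 CPM in aPD-1, against 101 CPM in IgG. Hist2h2ac, just under the 10 CPM limit on average, had a ratio of 1.44 (1.26 to 1.64). Hist1h2bc was lower in aPD-1, at 0.786 (0.756 to 0.818), and carried the H2B genes to 93.5 CPM in aPD-1, against 121 CPM in IgG. Hist1h2ae had a ratio of 0.805 (0.755 to 0.857) and Hist1h4d of 0.796 (0.707 to 0.895). Hist3h2a (0.959, 0.869 to 1.06) and Hist1h2ap (0.977, 0.956 to 0.998) were close to 1, and both crossed it when CPM was set against other genes.

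Counted against a 1.5-fold limit, 2 of the 9 members of at least 10 CPM were higher in aPD-1, Hist1h1b and Hist1h1e, where 0.531% of the 6967 genes at that level were. None of the 9 was lower by as much, against 3.01% of those genes, and 5 of 9 had a ratio under 1, against 67.1%. The median log2 ratio was −0.03 over the 9 members and −0.10 over all genes of that level. Of the 29 members from 1 to 10 CPM, 0 were at least 1.5-fold higher (2.61% of 4105 genes at that level) and 8 were at least 1.5-fold lower (11.4%), with 22 at a ratio under 1 (68.4%). Their median log2 ratio was −0.34, and that of all genes of the level −0.14. The 8 lower ones were all core genes: the H2B genes Hist1h2bj, Hist1h2be, Hist1h2bm and Hist1h2bb, the H2A gene Hist1h2ag, the H3 gene Hist1h3a and the H4 genes Hist1h4b and Hist1h4c. The lowest ratio was that of Hist1h2ag, 1.11 CPM in aPD-1, against 2.39 CPM in IgG (0.463, 0.339 to 0.63).

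Members below 1 CPM leaned the same way on very few UMIs. Of the 21 members from 0.1 to 1 CPM, 11 were at least 1.5-fold lower in aPD-1, where 37.6% of 2611 genes at that level were, and 0 were higher by as much (9.88%). Together the 57 core members under 10 CPM summed to 66.7 CPM in aPD-1, against 79.9 CPM in IgG (0.836, 0.800 to 0.873). Many of these genes are near copies of one another: 34 of 67 annotated members had under 50% of the 50-base stretches in their last 300 bases to themselves.

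**Figure D3:**
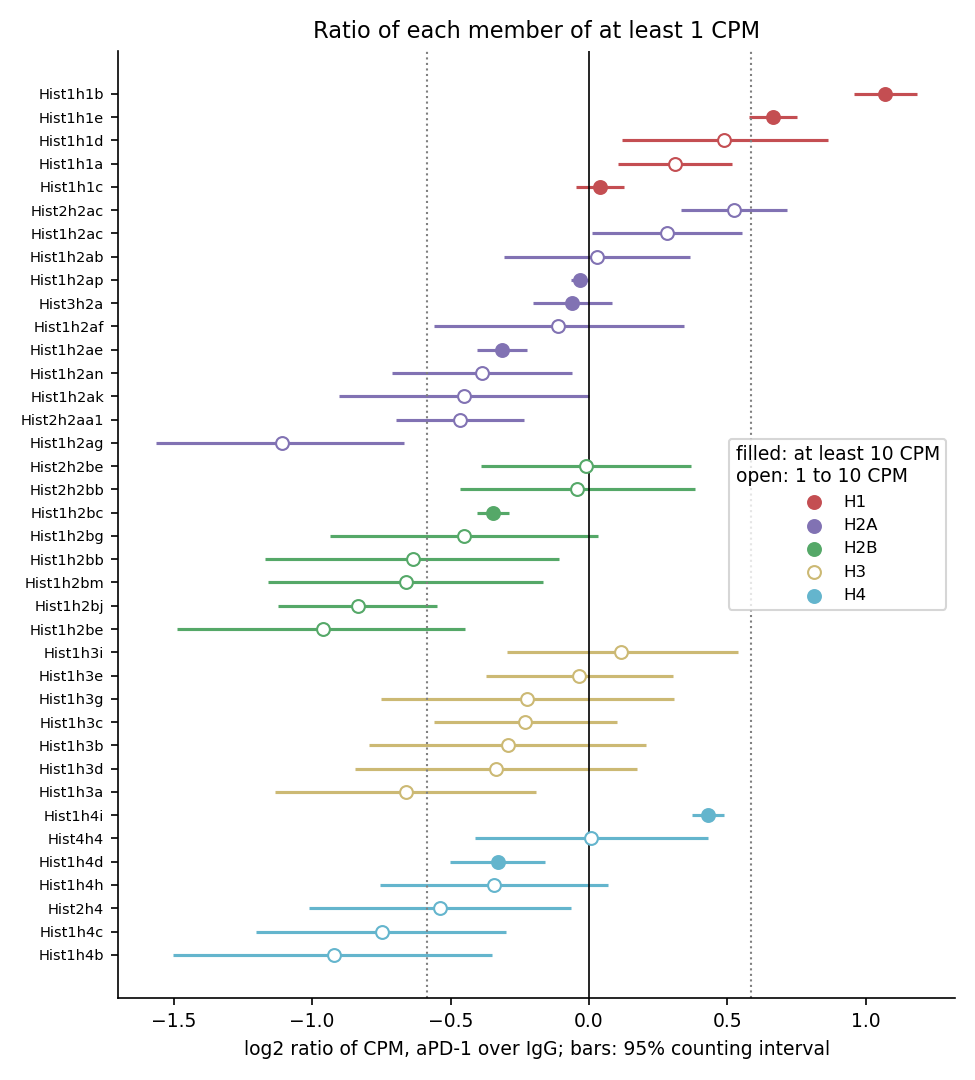
The log2 ratio of CPM, aPD-1 over IgG, of each member of at least 1 CPM, coloured by histone, with 95% counting intervals and dotted lines at 1.5-fold in either direction. All 5 linker genes lie at or right of 0, Hist1h1b at 1.07 and Hist1h1e at 0.66, while all 8 H2B genes and 6 of 7 H3 genes lie left of it.

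RNA outside cells was measured in the aPD-1 library alone, in 515790 barcodes of under 100 UMIs, since the IgG matrix holds no barcode under 500 UMIs. The members summed to 554 CPM there and to 739.6 CPM in aPD-1 cells. Hist1h2ap was at 137 CPM outside cells, Hist1h4i at 111 CPM, Hist1h2bc at 74.9 CPM, Hist1h1e at 29.3 CPM and Hist1h1b at 21.7 CPM, while the H3 genes were higher outside cells (20.5 CPM) than in them (14.5 CPM). Of the 29 members from 1 to 10 CPM, 15 were higher outside cells than in aPD-1 cells, where 31.8% of all genes at that level were, and of the 9 members of at least 10 CPM 3 were, where 34.6% of all genes were. The part of this RNA in the levels of the 2 libraries was not tested.

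The levels also differed with the number of UMIs per cell, though not in steady steps. From cells of 5000 to 10000 UMIs through 10000 to 20000 and 20000 to 40000 to those of over 40000, the members summed to 718, 541, 873 and 1226 CPM in aPD-1 and to 732, 610.2, 613 and 1231 CPM in IgG. Hist1h1c was lower in the deepest cells, with 73.5, 52.6, 25.5 and 19.1 CPM in aPD-1 and 51.5, 54.1, 35.8 and 22.5 CPM in IgG. Cells of over 40000 UMIs, among which doublets were not looked for, held 5.79% of all UMIs in aPD-1 and 17.1% in IgG. They carried 11.8% of the Hist1h2ap UMIs in aPD-1 and 38.1% in IgG. Without them the log2 ratio of Hist1h2ap was 0.29 in place of −0.03, that of Hist1h1b 1.45 in place of 1.07, and 3 members passed the 1.5-fold limit in place of 2. The third was Hist1h4i, at 0.63. Over the same 4 depth classes Hist1h1b had 21.2, 23.2, 51.4 and 56.2 CPM in aPD-1 and 10.4, 8.44, 15.7 and 40.1 CPM in IgG. It was higher in aPD-1 in each class, with the gap narrowest in relative terms over 40000 UMIs.

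To relate the members to the cell cycle, each cell was thinned to 5000 UMIs and cells of both libraries were cut together into terciles by their summed UMIs of 42 S phase genes that hold no member. The low tercile held cells with at most 3 such UMIs, the middle those with up to 9 and the high tercile the rest. The tercile is a range and not a phase: 1076 of 5554 cells lay at or 1 UMI above the lower limit and 444 at or 1 UMI above the upper. Nor does it set S phase apart from G2 and mitosis. Only 33 aPD-1 cells and 14 IgG cells of the high tercile were in the low tercile of 52 G2/M genes. The high tercile held 31.5% of aPD-1 cells and 28.2% of IgG cells, and RNA from outside cells, where the S phase genes summed to 1890 CPM against 1712 CPM in aPD-1 cells, is counted in these sums.

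Most of the abundant members were much higher in cells with many S phase UMIs. Hist1h2ap had 29.2, 189 and 504 CPM in the low, middle and high terciles of aPD-1 cells, and 62.2, 184 and 544 CPM in those of IgG cells. That is a high-over-low fold of 17.3 in aPD-1 and 8.76 in IgG. At the fixed depth of 5000 UMIs, 54.7% of aPD-1 cells and 46.0% of IgG cells of the high tercile had a Hist1h2ap UMI, and 9.30% and 18.2% of the low tercile. No cell type that lacks histone genes was at hand to measure a background share. Over all cells 29.6% of aPD-1 cells and 29.4% of IgG cells had one at that depth, and 42.8% and 52.8% without thinning.

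The linker genes split in their relation to the summed S phase genes. Hist1h1b had 5.14, 24.1 and 73.8 CPM from the low to the high tercile in aPD-1 and 1.04, 11.4 and 34.6 CPM in IgG, where the low value rests on 4 UMIs. Hist1h1e had 16.8, 39.3 and 84.2 CPM in aPD-1 and 12.7, 31.6 and 57.8 CPM in IgG. Hist1h1a had 0.886, 4.27 and 15.3 CPM in aPD-1 and 1.56, 4.44 and 8.72 CPM in IgG, with at most 6 UMIs in each low tercile. Hist1h1c ran the other way, at 71.2, 40.0 and 27.8 CPM in aPD-1 and 68.1, 39.3 and 25.9 CPM in IgG. Its share of linker UMIs was 75.3% in the low tercile and 13.6% in the high tercile of aPD-1 cells, and 81.1% and 19.8% in those of IgG cells.

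Core genes split likewise. The high-over-low fold was 8.83 in aPD-1 and 7.53 in IgG for Hist1h2ae, 6.61 and 3.82 for Hist2h2ac, 4.71 and 5.36 for Hist1h4d, and 2.76 and 2.24 for Hist1h4i. Hist1h2bc was lower in the high tercile, at 151.6, 86.5 and 51.5 CPM in aPD-1 and 180.5, 119.5 and 64.9 CPM in IgG. Hist3h2a had 19.1, 16.1 and 11.4 CPM in aPD-1 and 22.9, 19.3 and 7.11 CPM in IgG. The 57 core members under 10 CPM, as a sum, had a high-over-low fold of 3.40 in aPD-1 and 3.49 in IgG. All core members other than Hist1h2ap together, Hist1h2bc and Hist3h2a included, showed 1.44 in aPD-1 and 1.31 in IgG.

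**Figure D4:**
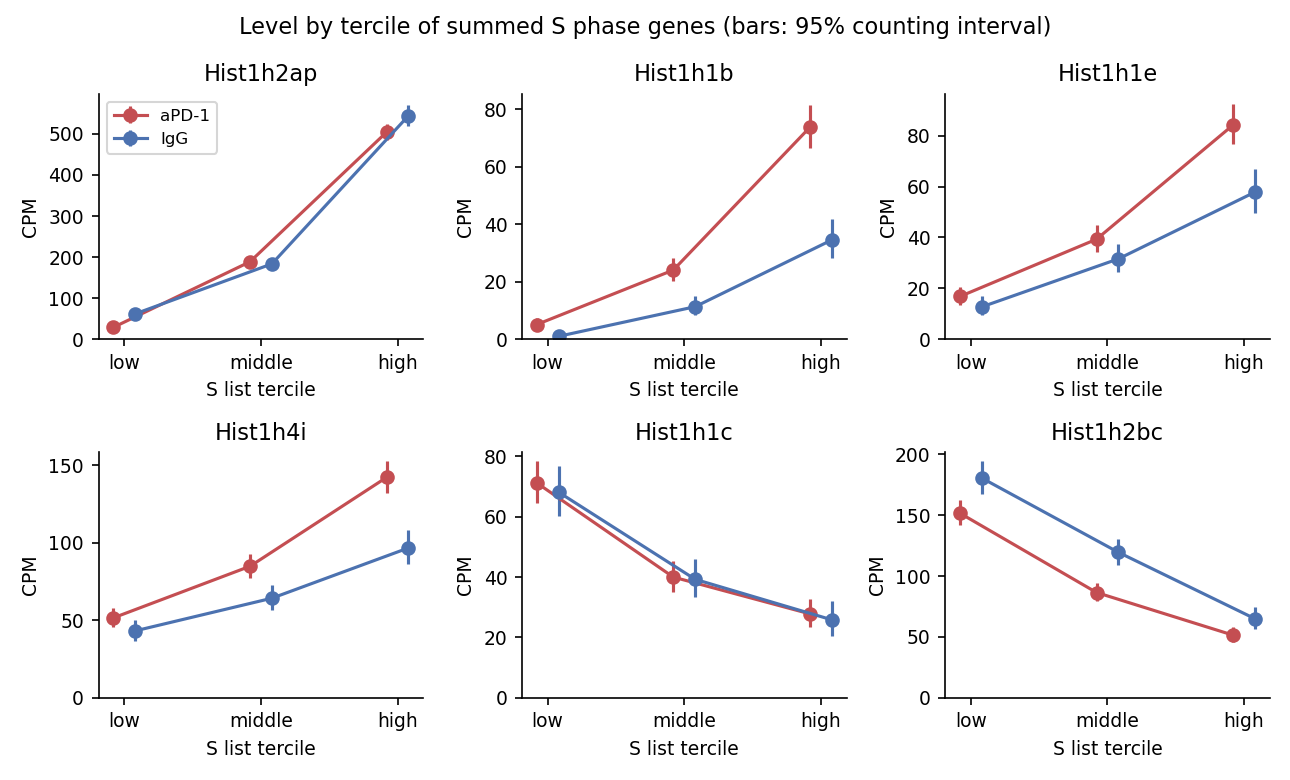
CPM of 6 members in the low, middle and high terciles of summed S phase UMIs, aPD-1 in red to the left of IgG in blue, with 95% counting intervals of cells thinned to 5000 UMIs. Hist1h2ap, Hist1h1b, Hist1h1e and Hist1h4i are highest in the high tercile of both libraries, and Hist1h1c and Hist1h2bc in the low.

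Setting cells of like cell cycle counts against each other gave a like difference between aPD-1 and IgG for the summed linker genes. For this the cells were cut into 9 bins by terciles of the S list and of 52 G2/M genes, and each library's level was averaged over the bins with the same weights. The log2 ratio so standardised was −0.01 for all members (−0.06 to 0.03), 0.45 for the linker genes (0.34 to 0.55) and −0.11 for the core genes (−0.16 to −0.06). In the same thinned cells without bins these values were −0.01, 0.44 and −0.10. Without bins Hist1h1b was at 1.22 and Hist1h1e at 0.50. Linker genes were higher in aPD-1 in 7 of 9 bins and core genes lower in 6 of 9. Hist1h1b had a standardised log2 ratio of 1.20 (0.95 to 1.46), Hist1h1e 0.49 (0.31 to 0.67), Hist1h4i 0.46 (0.33 to 0.59) and Hist1h1c 0.07 (−0.09 to 0.23). Hist1h1d, on few UMIs after thinning, had −0.09 (−0.88 to 0.70). Hist1h2bc had −0.33 (−0.43 to −0.22), Hist1h2ae −0.45 (−0.65 to −0.25) and Hist1h4d −0.59 (−0.94 to −0.24).

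Within each tercile the ratio of the libraries was as follows. The summed linker ratio was 1.13 (0.979 to 1.30) in the low tercile, 1.24 (1.08 to 1.41) in the middle and 1.56 (1.39 to 1.76) in the high tercile. Hist1h1b, Hist1h1e and Hist1h1c did not follow that order. From low to high, Hist1h1b had ratios of 4.94 (1.73 to 19.3, on 4 IgG UMIs), 2.12 and 2.13. Those of Hist1h1e were 1.32, 1.24 and 1.46, and those of Hist1h1c 1.05, 1.02 and 1.08. Hist1h1a did follow it, at 0.568 (0.137 to 2.23), 0.962 (0.504 to 1.87) and 1.76 (1.12 to 2.83). Hist1h1d, on few UMIs, had 1.02, 0.952 and 0.878. The make-up of the linker sum moved beside its ratio, since the share of Hist1h1c among linker UMIs was lowest in the high tercile, as given above. Hist1h4i had ratios of 1.19 (0.983 to 1.45), 1.32 (1.13 to 1.54) and 1.47 (1.28 to 1.69). Hist1h2ap differed most in the low tercile, with 29.2 CPM in aPD-1, against 62.2 CPM in IgG (0.470, 0.383 to 0.576). In cells low in both lists it had 14.5 CPM in aPD-1, against 47.4 CPM in IgG (0.305, 0.221 to 0.416), and in cells high in both 611 CPM and 614 CPM (0.995, 0.927 to 1.07). Whether the ratios differ between terciles beyond the variation of cultures could not be tested with 1 library each.

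Hist1h2ap reached high counts in single cells. At 5000 UMIs per cell, 2.65% of aPD-1 cells and 3.55% of IgG cells had 10 or more Hist1h2ap UMIs, with highest counts of 38 and 45. The tenth of cells with the most held 69.3% of its UMIs in aPD-1 and 77.5% in IgG. No cell of either library reached 10 UMIs of Hist1h1e, for which the highest count was 8 in both.

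Coexpression across cells was described on the 11 members with a UMI in at least 2% of thinned cells of both libraries, as Pearson's r of log values over 3356 aPD-1 cells and 2198 IgG cells, which share a library within each set. Over the 55 pairs the mean r was 0.139 in aPD-1 and 0.151 in IgG, and it was 0.137 and 0.163 over the 21 pairs of the 7 members in at least 5% of cells. The members formed 2 groups, which were named after the values were seen. In the first were Hist1h2ap, Hist1h1b, Hist1h1e, Hist1h4i, Hist1h2ae, Hist1h4d, Hist2h2ac and Hist1h1a, with a mean r of 0.243 in aPD-1 and 0.255 in IgG over 28 pairs. In the second were Hist1h2bc, Hist1h1c and Hist3h2a, with 0.197 and 0.230 over 3 pairs. Between the groups the mean r of the 24 pairs was 0.011 in aPD-1 and 0.020 in IgG.

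Hist1h2ap was in the 3 highest pairs of each library, with the linker genes Hist1h1b and Hist1h1e and the core gene Hist1h2ae. It had r = 0.541 in aPD-1 and 0.442 in IgG with Hist1h1b, 0.495 and 0.462 with Hist1h1e, and 0.442 and 0.559 with Hist1h2ae. Hist1h2ap and Hist1h2ae share sequence in their last 300 bases, so reads of one could also match the other. How such reads entered the counts was not examined. In the second group Hist1h2bc and Hist1h1c had r = 0.313 in aPD-1 and 0.371 in IgG, while Hist1h1c had 0.018 and 0.033 with Hist1h1b, its fellow linker gene. Summed linker and summed core UMIs had r = 0.513 in aPD-1 and 0.492 in IgG.

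With the S list, Hist1h2ap had r = 0.422 in aPD-1 and 0.323 in IgG, Hist1h1b 0.267 and 0.1995, and Hist1h1e 0.236 and 0.175. Hist1h2bc had −0.214 in aPD-1 and −0.162 in IgG, and Hist1h1c −0.142 and −0.112. The G2/M list gave values of the same sign for these 5 genes, from −0.123 for Hist1h2bc to 0.406 for Hist1h2ap in aPD-1 and from −0.102 for Hist1h1c to 0.308 for Hist1h2ap in IgG. The S and G2/M lists themselves had r = 0.625 in aPD-1 and 0.632 in IgG across the same cells. The summed level of all members had r = 0.257 in aPD-1 and 0.175 in IgG with the S list, and 0.309 and 0.212 with the G2/M list.

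**Figure D5:**
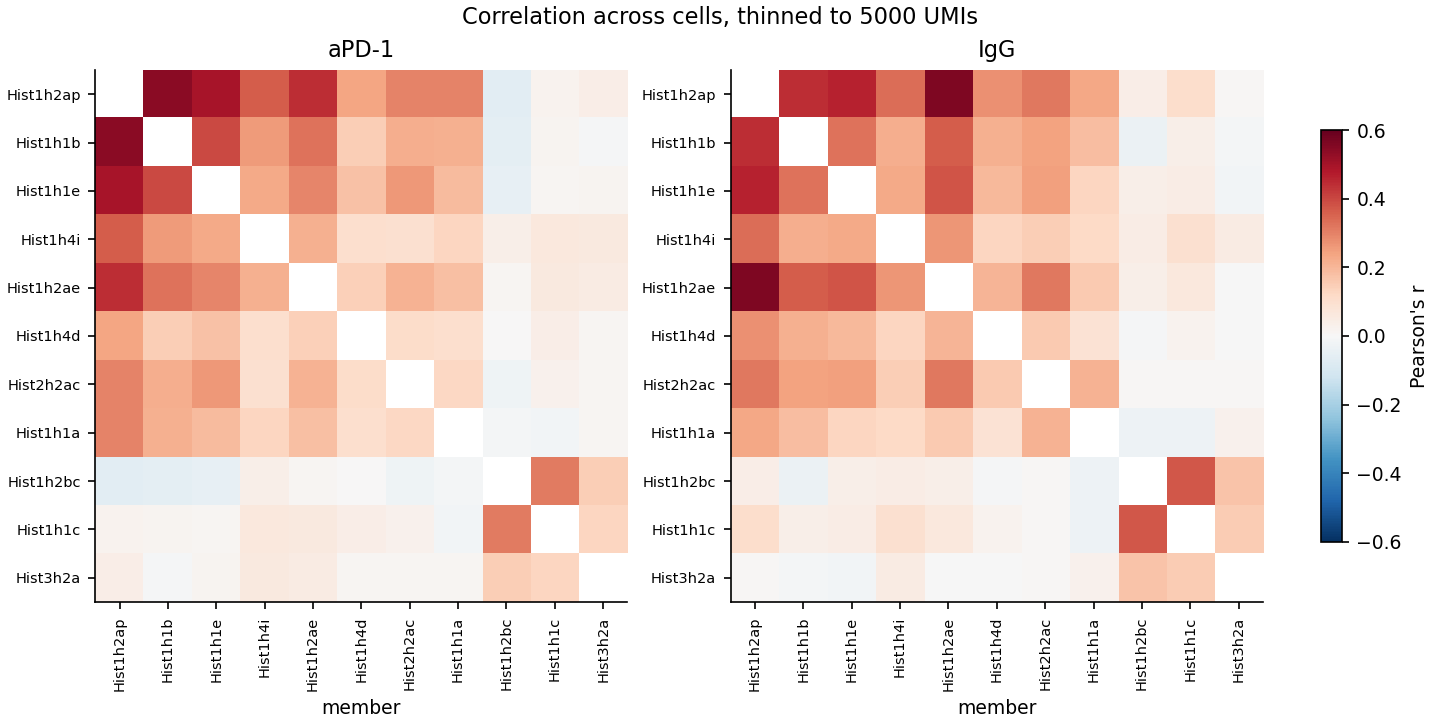
Pearson's r across cells thinned to 5000 UMIs between 11 members, aPD-1 on the left and IgG on the right, in the same order of genes. The upper left block of 8 genes is red in both libraries (mean r 0.243 and 0.255), the lower right block of 3 genes also (0.197 and 0.230), and the blocks between them are near white.

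The 10 genes outside the clusters whose values across cells were most like the summed members were Top2a, H3f3b, Hmgb2, Aurkb, Birc5, H1f0, Prc1, Rrm2, Incenp and Ube2c, out of 6312 ranked. Top2a, the topoisomerase that untangles replicated DNA, led with r = 0.422 in aPD-1 and 0.287 in IgG. H3f3b, a gene of the replacement histone H3.3, had 0.311 and 0.211, and H1f0, the replacement linker histone, 0.242 and 0.158. Rrm2, a subunit of ribonucleotide reductase, had 0.201 in aPD-1 and 0.171 in IgG, and Prc1, which bundles microtubules of the spindle midzone, 0.207 and 0.182. Aurkb, Birc5 and Incenp, which encode partners in the chromosomal passenger complex, had 0.250, 0.235 and 0.189 in aPD-1 and 0.20, 0.185 and 0.181 in IgG. Top2a, Hmgb2, Aurkb, Birc5 and Ube2c are also on the G2/M list and Rrm2 on the S list.

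Among 19 genes that make and handle histone mRNA, 16 reached 10 CPM, with 0 at least 1.5-fold higher and 1 lower in aPD-1, where 0.531% and 3.01% of all genes at that level were. That gene was Cpsf3, the nuclease that cuts histone pre-mRNA, at 12.0 CPM in aPD-1, against 19.97 CPM in IgG (0.601, 0.546 to 0.662). Slbp, which binds the stem-loop, had 111 CPM in aPD-1, against 124 CPM in IgG, and Npat, the activator of cluster histone transcription, 10.7 CPM and 10.6 CPM. E2f1, a transcription factor of S phase entry, had 45.8 CPM in aPD-1, against 33.6 CPM in IgG (1.36, 1.28 to 1.45). The list's median log2 ratio was −0.01, beside −0.10 for all genes of at least 10 CPM.

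Of 22 histone chaperones 21 reached 10 CPM and 0 passed the 1.5-fold limit either way, with a median log2 ratio of −0.14. Their ratios ran from 0.755 for Tonsl to 1.32 for Mms22l, which act together at stalled forks. Nasp, a carrier of H3, H4 and linker histones, had 119 CPM in aPD-1, against 151 CPM in IgG, and Chaf1a, the large subunit of the replication-coupled assembly factor, 33.5 CPM and 26.9 CPM. Of 11 histone genes outside the clusters 9 reached 10 CPM, with 0 past the limit. H2afx, the H2A variant phosphorylated at DNA breaks, had 36.4 CPM in aPD-1, against 25.1 CPM in IgG (1.45, 1.35 to 1.56), H2afz 1837 CPM and 1646 CPM, and H1f0 405 CPM and 372 CPM. The histone genes outside the clusters summed to 7082 CPM in aPD-1, against 6611 CPM in IgG, and the ends of their mRNAs were not examined.

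The cell cycle lists were counted against the same shares of all genes, 0.531% higher and 3.01% lower. Of 42 S phase genes 39 reached 10 CPM, with 0 past the 1.5-fold limit and ratios from 0.770 for Pcna to 1.47 for E2f8. Their sum was 1712 CPM in aPD-1, against 1735 CPM in IgG. Of 52 G2/M genes 41 reached 10 CPM, with 0 at least 1.5-fold higher and 2 lower in aPD-1, Ccnb2 (0.641) and Cdc20 (0.650), both of which act in mitosis. That sum was 3542 CPM in aPD-1, against 3795 CPM in IgG.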

How the data were processed

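The deposited matrices hold whole-number UMI counts per gene and cell, made with Cell Ranger 3.0.2 per the file headers. Seurat 2.1.0 and the build mm10 are named in the submitters' processing notes, while the annotation release was not given in the sources used here. Members and lists were chosen with earlier results of these data known. Per-sample columns left unused numbered 0. From the deposited counts, cells of at least 5000 UMIs with at most 10% mt- UMIs were kept, UMIs were summed per library and divided by all UMIs of those cells (CPM). Ratios of aPD-1 over IgG carry exact conditional binomial intervals, levels exact Poisson and shares Clopper-Pearson intervals, at 95%. They cover counting error alone, and the standardised ratios have a normal approximation of the same kind. No test was run, since each group is 1 library. Doublets were not called, and the deposited matrices held 737280 aPD-1 and 4351 IgG barcodes. Named genes were every Hist1h1 member, every member of at least 10 CPM, the 3 highest and 3 lowest ratios among these, the 10 genes outside the clusters with the highest mean r, and up to 4 extremes of each list. Genes named beyond this were chosen after their values were seen. Cell cycle bins and correlations used cells thinned to 5000 UMIs (seed 1), correlations on the natural log of 1 plus UMIs per 10000. Kept UMIs numbered 61462778 in aPD-1 and 49422640 in IgG. Coordinates and transcripts came from GENCODE M21 (GRCm38), promoters from RefSeq. Of the members, 67 matched the first and 62 the second, and the RefSeq entry of Hist1h2ap was chosen by its overlap with the GENCODE gene because its symbol is listed for a pair of genes. Calculations used Python 3.11.15, numpy 2.4.6, scipy 1.17.1, pandas 2.3.3 and matplotlib 3.10.9, and the calls, intervals, thinning and standardised ratio were tested on simulated data.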

Additional observations from a re-analysis of the deposited data

Results flagged for a closer look

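Cluster histone UMIs were also present in barcodes that the comparisons left out, those of at least 5000 UMIs with over 10% mt- UMIs. In the aPD-1 library 81 such barcodes, with 597524 UMIs, held 1449 CPM of summed cluster histone genes (1354 to 1549), against 739.6 CPM in the aPD-1 cells kept. In the IgG library 89 such barcodes, with 796939 UMIs, held 757 CPM (697 to 820), against 723 CPM in the IgG cells kept. A count of 0 would have allowed 5.02 CPM in the aPD-1 barcodes and 3.76 CPM in the IgG barcodes. Hist1h2ap had 589 CPM in the aPD-1 barcodes and 306 CPM in the IgG barcodes, Hist1h1e 159 CPM and 41.4 CPM, and Hist1h1b 43.5 CPM and 23.8 CPM. Hist1h2bc was below its level in kept cells in both libraries, at 46.9 CPM in the aPD-1 barcodes and 50.2 CPM in the IgG barcodes.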

How the results depend on the processing

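For the sums of all, linker and core members and for the ratios of 11 members, the 5 linker genes with UMIs among them, 9 other settings were tried. No other ratio or sum, such as that of Hist2h2ac, the H2B, H3 and H4 genes or the core members under 10 CPM, was recomputed. Of the settings, leaving out cells over 40000 UMIs was added after the data were seen. The log2 ratio of all members, 0.03 as reported, was 0.0663 at no more than 5% mt- UMIs, 0.0101 with each cell weighted equally, 0.14 over UMIs outside ribosomal, mitochondrial and cluster histone genes, 0.13 relative to the median gene, 0.0123 without the tenth of cells highest in Gsn, Lbp, Dpt and Dcn, and 0.20 without cells over 40000 UMIs. For core genes (−0.06) it was −0.0218, −0.0893, 0.0415, 0.0407 and 0.11 at no more than 5% mt- UMIs, with equal weights, over other UMIs, relative to the median and without the large cells. The linker value (0.52) was 0.62 in each of the last 3 settings, and ran from 0.49 to 0.62 over the 9. The 2 members at least 1.5-fold higher became 1 with equal weights, where Hist1h1e was at 0.57, and the count was 2 or 3 otherwise. Members at least 1.5-fold lower numbered 0 of 9 at a minimum of 10 CPM, 8 of 38 at 1 CPM and 19 of 60 with only 1 UMI required in each library. Over all genes that share also rose as the level fell, from 3.01% at 10 CPM or more to 11.4% from 1 to 10 CPM. From 0.1 to 1 CPM it was 37.6%. The shares of all genes were not recounted under the other settings. The level within cell cycle bins (−0.01) was 0.0542 from cells of at least 2000 UMIs thinned to 2000. Mean coexpression (0.15 over both libraries) was 0.230 without thinning, 0.122 by Spearman's rho and 0.177 in the high S tercile. The causes were not tested. No paired analysis was possible because each group has 1 library.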

Other observations

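The genes most like the members differed between Hist1h2ap, which rose with the S list, and Hist1h2bc, a pair looked at after the values were seen. Across thinned cells Hist1h2ap was most like Top2a (r = 0.553 in aPD-1 and 0.394 in IgG), followed by Hmgb2 (0.357 and 0.296), Aurkb, Rrm2, Birc5 and Gmnn, the inhibitor of replication licensing (0.283 and 0.245). Hist1h2bc was most like Klf2, a zinc finger transcription factor (0.198 in aPD-1 and 0.186 in IgG), followed by Ftl1, a ferritin light chain (0.169 and 0.183), Malat1, H3f3b, Mt2 and Klf4 (0.163 and 0.170). The metallothionein gene Mt1 and the AP-1 gene Jund had 0.127 and 0.152 with Hist1h2bc in aPD-1 and 0.198 and 0.168 in IgG. These correlations are low, and the cells of each set share a library.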
